A study of Arabidopsis thaliana with 15 samples.

Results

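The tau (GSTU) and phi (GSTF) glutathione transferases of Arabidopsis thaliana were followed at the transcript level in seedlings exposed to salt, mannitol or the bacterial elicitor peptide Flg22. The members were listed by gene name, with earlier results of these data known. They were 41 loci, 28 tau and 13 phi. Of these, 40 were among the 24618 genes of the count table, namely all 28 tau loci and 12 phi loci. GSTF11 (AT3G03190) was not analysed here. The series held 15 RNA-seq libraries of the ecotype Col-0 in 5 groups of 3: 150 mM salt, 300 mM mannitol, 250 nM Flg22, an untreated group for mannitol (the mannitol control) and an untreated group for salt and Flg22 (mock). All plants were wild type and 6 days old, and the submitters gave sampling at 0 and 3 hours without assigning a time to a sample. The labels named whole seedlings as the tissue, whereas the methods of the study described pooled roots harvested 3 hours after stress, named a higher dose for Flg22 treatments than the labels, and in its imaging experiments gave mannitol on plates but the other stresses in liquid. Nothing in the labels said whether libraries A, B and C of a group came from separate cultures, and p-values therefore measure the spread between these libraries, which may be technical.

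Glutathione transferases join the tripeptide glutathione to reactive, mostly electrophilic compounds, and the conjugates are then moved into the vacuole by ABCC transporters. The tau and phi classes are plant-specific, are encoded largely by tandem arrays of duplicated genes, and are known for their induction by herbicides, safeners, oxylipins and pathogens. Some members have narrower roles, among them GSTF6 in the synthesis of the defence compound camalexin and GSTF12 (TT19) in the delivery of anthocyanins to the vacuole.

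Library totals lay between 6094503 and 13943645 counts, and 3 counts, taken as the limit of detection, corresponded to 0.205 to 0.470 CPM, the usual read count scaled to library size, here with TMM factors. Within groups, pairs of libraries differed beyond sampling noise (chi-square per degree of freedom 2.94 to 12.3). Mock B, Salt C, Mannitol A and Flg22 A stood further from their group than the other libraries. The summed level of 8 root markers was 374 to 1032 CPM and that of 8 genes of green tissue 34.9 to 261 CPM. Each of the 8 root markers had counts in every group, while 1 of the green genes was at 0 in the mannitol libraries, although the tissue label names whole seedlings. Between treatments the summed root markers were 569 to 636 CPM in salt, 976 to 1032 CPM in Flg22 and 715 to 907 CPM in mock, and 374 to 435 CPM in mannitol and 568 to 590 CPM in the mannitol control. The green genes summed to 34.9 to 100.4 CPM in salt, 64.0 to 261 CPM in Flg22 and 104 to 167 CPM in mock, and to 76.9 to 103 CPM in mannitol and 87.3 to 115 CPM in the mannitol control. By edgeR, 2 root markers were higher and 4 lower in salt, 2 higher and 6 lower in mannitol, and 0 of 8 called in Flg22 (2 higher and 2 lower at an unadjusted p under 0.05). Of the green genes, 0 were higher and 3 lower in salt, with 0 higher and 3 lower unadjusted. In mannitol 0 of 5 tested were called (1 lower unadjusted) and in Flg22 0 of 8 (0 unadjusted). Over all genes tested, 22.5% were called higher and 19.4% lower in salt, 26% and 26% in mannitol, and 2.54% and 1.14% in Flg22. Whether a shift in tissue makeup took part in the results below was not tested, and in bulk samples fewer cells of a type and less RNA per cell cannot be told apart.

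GSTU17, GSTU18, GSTU3, GSTU4 and GSTU5 rose strongly in salt, GSTU12 rose strongly in mannitol, and GSTF14 fell strongly in salt, as described below. GSTF8 had the most counts of any phi member in the salt and mannitol libraries. The 250 bases before the annotated start of these 8 members are shown. They are RefSeq sequences of the TAIR10.1 assembly, read 5′ to 3′ on the strand of the gene, and capitals mark TGACG, the core bound by TGA factors, and ACGTG, the core of the ABA-responsive element, each on either strand (CGTCA and CACGT in reverse).
GSTU17: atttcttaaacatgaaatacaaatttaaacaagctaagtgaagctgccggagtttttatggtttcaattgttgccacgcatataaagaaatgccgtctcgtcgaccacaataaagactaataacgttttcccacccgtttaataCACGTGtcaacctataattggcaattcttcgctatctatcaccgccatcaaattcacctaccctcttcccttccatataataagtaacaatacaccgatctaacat
GSTU18: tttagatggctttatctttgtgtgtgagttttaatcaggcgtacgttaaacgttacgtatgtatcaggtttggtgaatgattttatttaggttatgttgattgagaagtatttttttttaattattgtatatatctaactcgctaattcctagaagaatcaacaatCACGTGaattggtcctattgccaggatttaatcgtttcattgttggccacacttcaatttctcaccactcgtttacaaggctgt
GSTU3: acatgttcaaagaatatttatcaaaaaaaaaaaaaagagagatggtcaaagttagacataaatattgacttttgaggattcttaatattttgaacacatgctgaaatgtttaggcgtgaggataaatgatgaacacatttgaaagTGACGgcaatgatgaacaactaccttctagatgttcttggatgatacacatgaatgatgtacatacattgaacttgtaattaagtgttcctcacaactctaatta
GSTU4: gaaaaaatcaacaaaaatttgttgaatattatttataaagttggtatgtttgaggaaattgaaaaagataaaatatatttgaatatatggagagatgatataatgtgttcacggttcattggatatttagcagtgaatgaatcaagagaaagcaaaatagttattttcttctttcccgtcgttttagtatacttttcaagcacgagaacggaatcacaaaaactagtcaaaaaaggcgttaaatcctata
GSTU5: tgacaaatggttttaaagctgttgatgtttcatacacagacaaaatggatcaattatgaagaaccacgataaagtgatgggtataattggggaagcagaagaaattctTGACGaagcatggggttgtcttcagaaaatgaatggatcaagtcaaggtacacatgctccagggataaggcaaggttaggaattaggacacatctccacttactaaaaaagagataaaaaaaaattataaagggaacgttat
GSTF8: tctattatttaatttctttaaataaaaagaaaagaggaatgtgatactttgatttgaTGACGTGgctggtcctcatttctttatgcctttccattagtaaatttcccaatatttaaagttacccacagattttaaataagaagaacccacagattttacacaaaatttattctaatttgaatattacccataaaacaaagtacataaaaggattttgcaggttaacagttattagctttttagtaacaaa
GSTU12: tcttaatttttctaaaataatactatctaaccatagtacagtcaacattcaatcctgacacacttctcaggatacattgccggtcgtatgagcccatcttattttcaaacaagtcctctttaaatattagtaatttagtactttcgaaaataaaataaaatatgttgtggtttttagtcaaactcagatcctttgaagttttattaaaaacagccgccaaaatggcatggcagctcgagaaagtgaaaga
GSTF14: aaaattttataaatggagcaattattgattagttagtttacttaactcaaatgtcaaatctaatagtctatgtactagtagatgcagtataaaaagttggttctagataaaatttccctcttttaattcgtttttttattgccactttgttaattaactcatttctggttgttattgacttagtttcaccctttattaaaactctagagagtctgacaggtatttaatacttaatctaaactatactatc
The windows are chr1:3398359-3398608 (GSTU17, minus strand), chr1:3396954-3397203 (GSTU18, minus), chr2:12629641-12629890 (GSTU3, minus), chr2:12627892-12628141 (GSTU4, minus), chr2:12625791-12626040 (GSTU5, minus), chr2:19556076-19556325 (GSTF8, plus), chr1:26335631-26335880 (GSTU12, minus) and chr1:18458276-18458525 (GSTF14, plus). GSTU17 and GSTU18 both held the palindrome CACGTG, which reads as ACGTG on both strands, and the GSTU18 window lay inside the annotated GSTU17 gene (AT1G10370). The GSTU5 window overlapped the annotated gene AT2G29452 and the GSTF8 window overlapped AT2G47710. GSTF8 held TGACGTG, in which the TGACG and ACGTG letters overlap, and GSTU3 and GSTU5 held TGACG alone. The windows of GSTU4, GSTU12 and GSTF14 held neither string.

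Among the 40 members, 14 (35%) had TGACG in this window, 11 of the 28 tau and 3 of the 12 phi genes, beside 19.0% of 24617 windows of the same length over the genes of the table. ACGTG was found in 14 members (35%), beside 23.3% of all windows. The W-box core TTGAC, the string bound by WRKY factors, was found in 24 members (60%), beside 45.2% of all windows. Of the 10 members raised at least 2-fold by salt, 6 held TGACG, 4 held ACGTG and 6 held TTGAC. The other 30 members included 8 with TGACG, 10 with ACGTG and 18 with TTGAC. These are matches of short strings only.

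In the TAIR10.1 annotation, 29 of the 41 loci lay in 9 arrays with no more than 10 kb between neighbours. The largest holds GSTU1 to GSTU7 on chromosome 2, all on the minus strand, with GSTU7 at position 12617936 and GSTU1 ending at 12632538. GSTU19 to GSTU23 and GSTF4 to GSTF7 form arrays of 5 and 4 genes on chromosome 1. The nearest pairs by coding sequence were GSTF2 and GSTF3, identical at 94.5% of aligned positions although on chromosomes 4 and 2, and the neighbours GSTF6 and GSTF7, identical at 94.3%. Of the GSTF6 transcript, 1.56% of 100-base windows occurred in another gene, and of the GSTF7 transcript 1.53%. For GSTU2, GSTU7, GSTF2 and GSTU6 the shared windows came to 55.3%, 46.2%, 45.2% and 24.2%, in each case most of them with an overlapping annotated gene, and since the libraries were not stranded their counts may include reads of that gene. GSTU17 and GSTU18 overlap at the 3′ end of GSTU17, and how reads in that stretch were counted was not tested.

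The pool of transcripts was dominated by a few members. In the 6 untreated libraries, GSTU19 (AT1G78380), the tau enzyme best known for its response to herbicide safeners, had the highest level per length, 1582 CPM per kilobase of exon. The phi members GSTF9 (AT2G30860), GSTF10 (AT2G30870) and GSTF8 (AT2G47730) followed with 890 CPM, 738 CPM and 506 CPM per kilobase. This order is that of the mean over both untreated groups. In mock alone GSTF10 had 701, GSTF9 569.4, GSTF7 568.6 and GSTF8 402 CPM per kilobase. The length was that of all annotated exons together, 2395 bases for GSTF8 and 1233 for GSTF9, which lowers the level of GSTF8 per kilobase. The 5 most counted members took 62.5% to 77.1% of the counts of all members in each library. The 40 members together took 0.513% to 0.982% of library counts.

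GSTF8 rose in both salt and mannitol, whereas GSTU19, GSTF9 and GSTF10 fell in mannitol and were not called in salt. GSTU19 had 1331, 1205 and 1319 CPM in salt, 1663, 948 and 1008 CPM in Flg22 and 1111, 1293 and 1047 CPM in mock. GSTU19 had 2132, 1996 and 1862 CPM in mannitol, against 2269.9, 2234 and 2675 CPM in the mannitol control. All mannitol libraries lay below their controls, a decrease of 0.27 ± 0.09 on the log2 scale (SE), with an adjusted p of 0.0255 in the quasi-likelihood test of edgeR, adjusted after Benjamini and Hochberg over all genes, while the differences in salt (0.19 ± 0.11, adjusted p 0.173) and Flg22 (0.05 ± 0.25, adjusted p 0.95) did not pass that edgeR test. GSTF8, whose promoter is widely used as an early stress reporter, had 1465, 1391 and 1393 CPM in salt, against 968, 997 and 920.3 CPM in mock. In mannitol GSTF8 had 2232, 2085 and 1846 CPM, against 1455, 1462 and 1471 CPM in the mannitol control. It was therefore higher in each salt library than in any mock library and in each mannitol library than in any control, by 0.59 ± 0.09 (adjusted p 0.000508, edgeR) and 0.49 ± 0.08 (adjusted p 0.000245, edgeR).

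The pair GSTF9 and GSTF10, linked to glucosinolate synthesis, had no called increase in any treatment. GSTF9 had 867, 869 and 1024 CPM in mannitol, against 1456, 1501 and 1518 CPM in the mannitol control, a log2 change of -0.70 ± 0.09 (adjusted p 1.28e-05, edgeR). In salt GSTF9 had 578, 588 and 654 CPM, against 549, 914 and 643 CPM in mock. Those groups overlapped and the difference was not called (adjusted p 0.448, edgeR). GSTF10 had 765, 737 and 806 CPM in mannitol, against 863, 871 and 898 CPM in the mannitol control, a small decrease of 0.19 ± 0.07 (adjusted p 0.0420, edgeR). In Flg22 GSTF10 had 893, 942 and 1109 CPM, against 712, 880.1 and 789 CPM in mock, without overlap, but the difference of 0.28 ± 0.10 was not called (adjusted p 0.178, edgeR).

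Salt against mock asked which members respond to 150 mM salt. A subset of tau genes rose, among them GSTU17, GSTU5, GSTU4 and GSTU3, and the phi gene GSTF14 was among those that fell. Of the 40 members, 34 passed the filter on low counts: 11 rose (32.4%) and 6 fell (17.6%), beside 22.5% higher and 19.4% lower among 18484 genes tested. Past 2-fold, 10 members were higher and 4 lower, beside 9.59% and 7.84% of all genes. Of 25 tau genes tested, 10 were higher and 5 lower. Of 9 phi genes tested, GSTF8 was the 1 that rose and GSTF14 the 1 that fell. The median log2 fold change was 0.58 in the tau class and -0.18 in the phi class, and -0.01 over all genes tested. The filter left out GSTU2, GSTU15, GSTU21, GSTF4, GSTF5 and GSTF12, which had at most 19 counts in any salt or mock library.

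GSTU17 (AT1G10370), also named ERD9 for its early response to dehydration, had 270.4, 311 and 163 CPM in salt, against 2.98, 9.29 and 7.83 CPM in mock. The lowest salt library was thus far above the highest mock library, with a log2 fold change of 5.21 ± 0.44 (adjusted p 0.000274, edgeR). Its neighbour GSTU18 (AT1G10360) had 15.1, 14.1 and 9.45 CPM in salt, against 2.35, 2.17 and 1.80 CPM in mock, 2.67 ± 0.25 on the log2 scale (adjusted p 2.95e-05, edgeR). Both genes had their lowest salt value in Salt C. GSTU17 had 7.39, 5.18 and 5.47 CPM in Flg22, within the range of mock.

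In the chromosome 2 array the salt response was strong in the middle and weak at the ends. GSTU5 (AT2G29450) had 401, 372 and 310.4 CPM in salt, against 14.4, 27.9 and 14.6 CPM in mock, a log2 fold change of 4.31 ± 0.28 (adjusted p 3.62e-05, edgeR). GSTU4 (AT2G29460) had 146, 124 and 89.1 CPM in salt, against 10.2, 18.1 and 5.40 CPM in mock, 3.52 ± 0.45 (adjusted p 0.00188, edgeR). For both genes the groups lay far apart. GSTU6 (AT2G29440) had 68.3, 80.9 and 85.8 CPM in salt, against 16.6, 25.2 and 22.5 CPM in mock, 1.90 ± 0.15 (adjusted p 1.32e-05, edgeR). GSTU3 (AT2G29470) was close to absent in mock, with 0, 1 and 2 counts, and had 81, 96 and 62 counts in salt. The ratio of its summed counts, 239 in salt and 3 in mock, was 76.2 with an exact 95% interval of 25.8 to 372 that covers counting error only, and GSTU3 passed the count filter through its salt libraries alone. At the ends of the array, GSTU1 (AT2G29490) had 117, 98.9 and 89.8 CPM in salt, against 55.6, 89.4 and 45.5 CPM in mock, and GSTU7 (AT2G29420) had 2.22, 4.61 and 2.88 CPM in salt, against 2.51, 2.32 and 1.96 CPM in mock. The GSTU1 groups were just apart and those of GSTU7 overlapped, and neither gene was called, with an adjusted p of 0.0598 for GSTU1 and 0.185 for GSTU7 in edgeR's quasi-likelihood test. GSTU2 (AT2G29480) had 2 counts in all 15 libraries together.

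**Figure D1:**
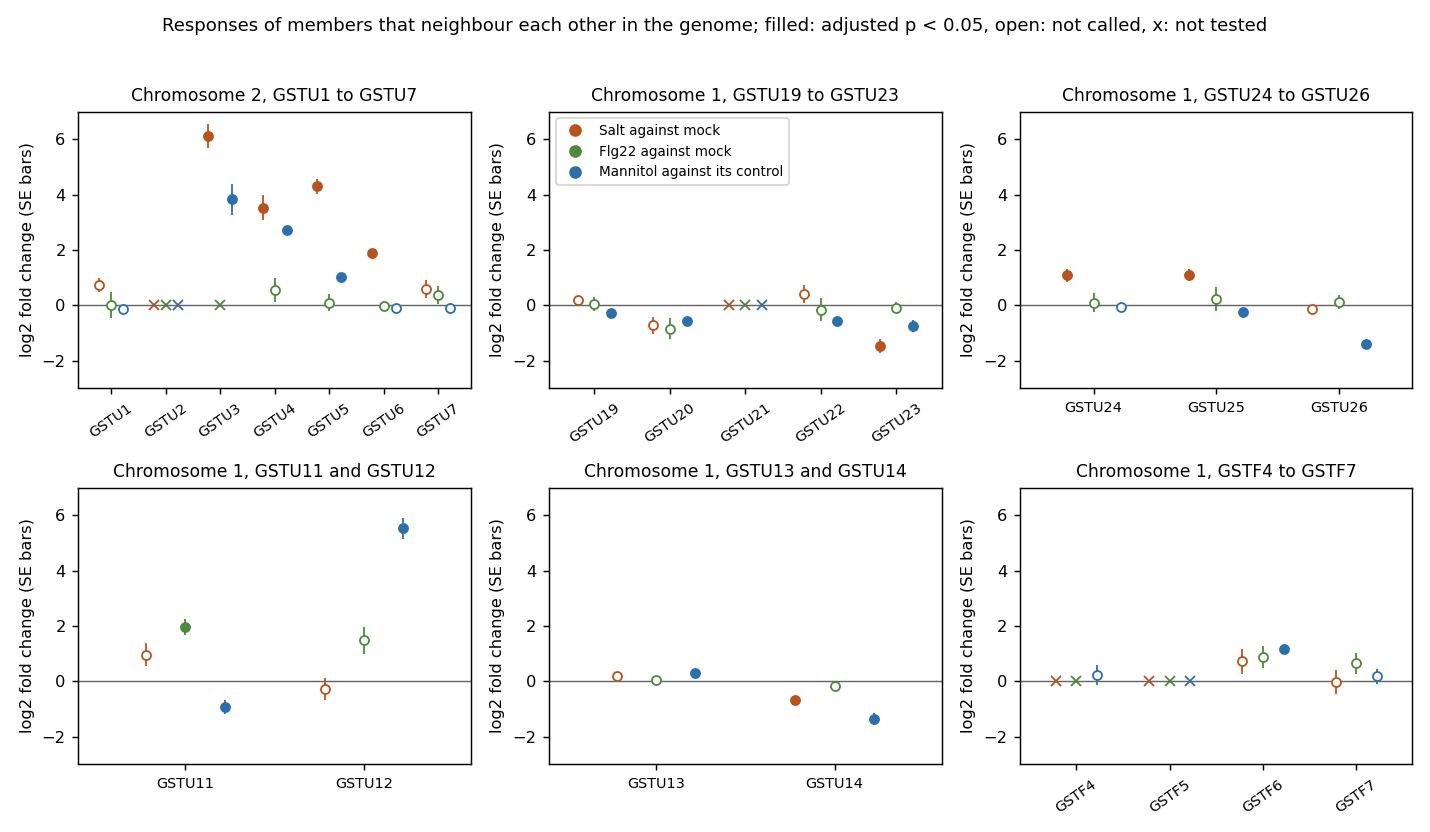
Log2 fold change (y axis, SE bars) of members that neighbour each other in the genome, in 6 panels, for salt against mock (orange), Flg22 against mock (green) and mannitol against its control (blue). Filled points passed an adjusted p of 0.05, open points did not, and crosses were not tested. GSTU3, GSTU4 and GSTU5 were raised by salt and mannitol while GSTU1 and GSTU7 of the same array were not called.

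The remaining tau genes raised by salt were GSTU16, GSTU9, GSTU25 and GSTU24. GSTU16 (AT1G59700) had 39.8, 32.6 and 24.8 CPM in salt, against 7.05, 7.59 and 8.85 CPM in mock, 2.06 ± 0.19 on the log2 scale (adjusted p 3.03e-05, edgeR). Its neighbour GSTU15 (AT1G59670), identical at 83.1% of coding positions, had 1 count in all 15 libraries. GSTU9 (AT5G62480) had a mean of 129 ± 9.5 CPM in salt and 46.4 ± 12.5 CPM in mock (SD, n = 3 each). GSTU24 (AT1G17170) and GSTU25 (AT1G17180), which act on the explosive TNT, had means of 311 ± 22.8 and 221 ± 18.5 CPM in salt and 151 ± 51.8 and 107 ± 34.3 CPM in mock (SD, n = 3 each). Their array partner GSTU26 (AT1G17190) had means of 46.5 ± 6.60 CPM in salt and 51.7 ± 8.63 CPM in mock and was not called.

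Decreases in salt included a single phi gene. GSTF14 (AT1G49860) had 2, 12 and 6 counts in salt and 160, 126 and 353 counts in mock, that is 0.234, 1.26 and 0.691 CPM in salt, against 25.1, 19.5 and 27.6 CPM in mock. The groups did not come near each other, and the log2 fold change was -4.96 ± 0.33 (adjusted p 5.09e-06, edgeR). With at most 12 counts in a salt library, GSTF14 passed the count filter through its mock libraries, and its p is therefore no independent support. GSTU28 (AT1G53680) had 4.09, 4.71 and 4.26 CPM in salt, against 10.3, 17.3 and 13.4 CPM in mock (-1.61 ± 0.21, adjusted p 0.000268, edgeR). GSTU23 (AT1G78320) had 2.22, 1.36 and 2.65 CPM in salt, against 5.95, 5.58 and 6.03 CPM in mock (-1.47 ± 0.27, adjusted p 0.00180, edgeR). These were low but separate levels. GSTU10 (AT1G74590) had 8.89, 10.6 and 8.76 CPM in salt, against 16.6, 36.1 and 13.7 CPM in mock, where Mock B alone was above 17 CPM. Its log2 change of -1.17 ± 0.39 had an adjusted p of 0.0491 in edgeR, and 0.178 without Salt C. GSTU27 (AT3G43800) and GSTU14 (AT1G27140) fell by 0.90 and 0.68 on the log2 scale.

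**Figure D2:**
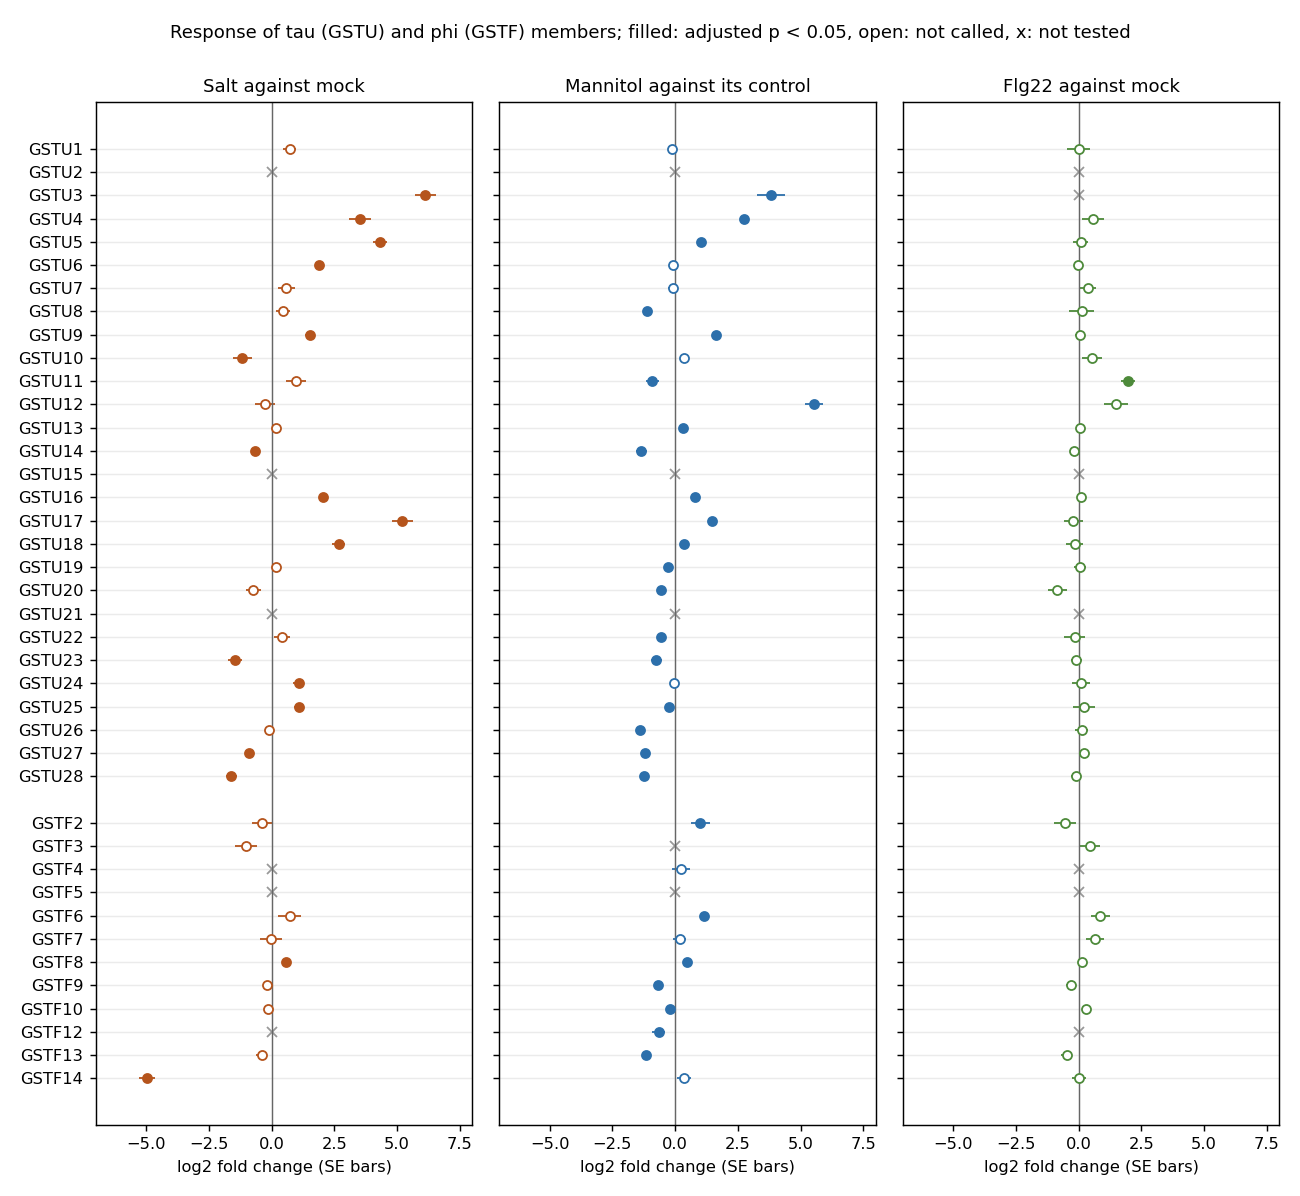
Log2 fold change (x axis, SE bars) of each member in salt against mock, mannitol against its control and Flg22 against mock, tau members above and phi members below. Filled points passed an adjusted p of 0.05, open points did not, and crosses were not tested. Salt called 11 members higher and 6 lower, mannitol 12 higher and 15 lower, and Flg22 1 higher.

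Mannitol against its control asked which members respond to 300 mM mannitol, given as an osmotic stress without added ions. GSTU12, GSTU3 and GSTU4 were among the genes that rose, and GSTU26, GSTU14, GSTU28 and GSTU27 fell most. Of 35 tested, 12 were higher (34.3%) and 15 lower (42.9%), beside 26% higher and 26% lower among 18939 genes tested. Past 2-fold, 8 members were higher and 6 lower, beside 8.98% and 7.46% of all genes. The tau class had 9 genes higher and 11 lower of 25 tested, and the phi class 3 higher and 4 lower of 10. The median log2 fold change of the members was -0.09, and -0.02 over all genes tested. GSTU2, GSTU15, GSTU21, GSTF3 and GSTF5 were left out by the filter.

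GSTU12 (AT1G69920) had 139, 104 and 110 counts in mannitol and 1, 6 and 2 counts in the mannitol control, that is 14.3, 9.43 and 8.92 CPM in mannitol, against 0.0809, 0.409 and 0.151 CPM in the control. The ratio of summed counts was 47.7 with an exact 95% interval of 24.8 to 105 for counting error only, and the fitted log2 fold change was 5.53 ± 0.37 (adjusted p 4.02e-08, edgeR). With no more than 6 counts in any control library, GSTU12 passed the count filter through its mannitol libraries alone, and its p is therefore no independent support. In the groups set against mock, GSTU12 had 10.6, 11.2 and 8.41 CPM in salt and 20.2, 12.2 and 6.26 CPM in mock. Its neighbour GSTU11 (AT1G69930) had 2.06, 1.81 and 1.38 CPM in mannitol, against 3.07, 3.48 and 3.26 CPM in the control, a change of -0.92 ± 0.26 (adjusted p 0.00911, edgeR), so that the pair moved in opposite directions.

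GSTU4 had 106, 104 and 96.1 CPM in mannitol, against 14.2, 13.8 and 18.1 CPM in the mannitol control, 2.73 ± 0.10 on the log2 scale (adjusted p 1.55e-10, edgeR). GSTU9 had 159, 139.6 and 125 CPM in mannitol, against 48.9, 42.1 and 46.3 CPM in the control, 1.62 ± 0.09 (adjusted p 9.41e-09, edgeR). For GSTU4 and GSTU9 (AT2G29460 and AT5G62480) the mannitol control overlapped mock in range, and the salt and mannitol libraries overlapped too. GSTU17 (AT1G10370) had 377, 306 and 275 CPM in mannitol, against 115, 118 and 116 CPM in the control, 1.45 ± 0.10 (adjusted p 4.28e-08, edgeR). GSTU5 (AT2G29450) had 267, 227 and 191 CPM in mannitol, against 121, 93.9 and 119 CPM in the control, 1.03 ± 0.13 (adjusted p 3.73e-05, edgeR). In GSTU17 and GSTU5 every library of the mannitol control was above every mock library. GSTF6 (AT1G02930), the camalexin-related phi gene, had 108, 66.7 and 85.0 CPM in mannitol, against 36.8, 32.5 and 46.0 CPM in the control, 1.17 ± 0.19 (adjusted p 0.00121, edgeR). GSTU3 rose to 48, 26 and 72 counts in mannitol, against 7, 5 and 0 counts in the control, a ratio of summed counts of 14.8 with an exact 95% interval of 8.22 to 29.3 for counting error only, and it too passed the filter through the mannitol libraries alone.

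**Figure D3:**
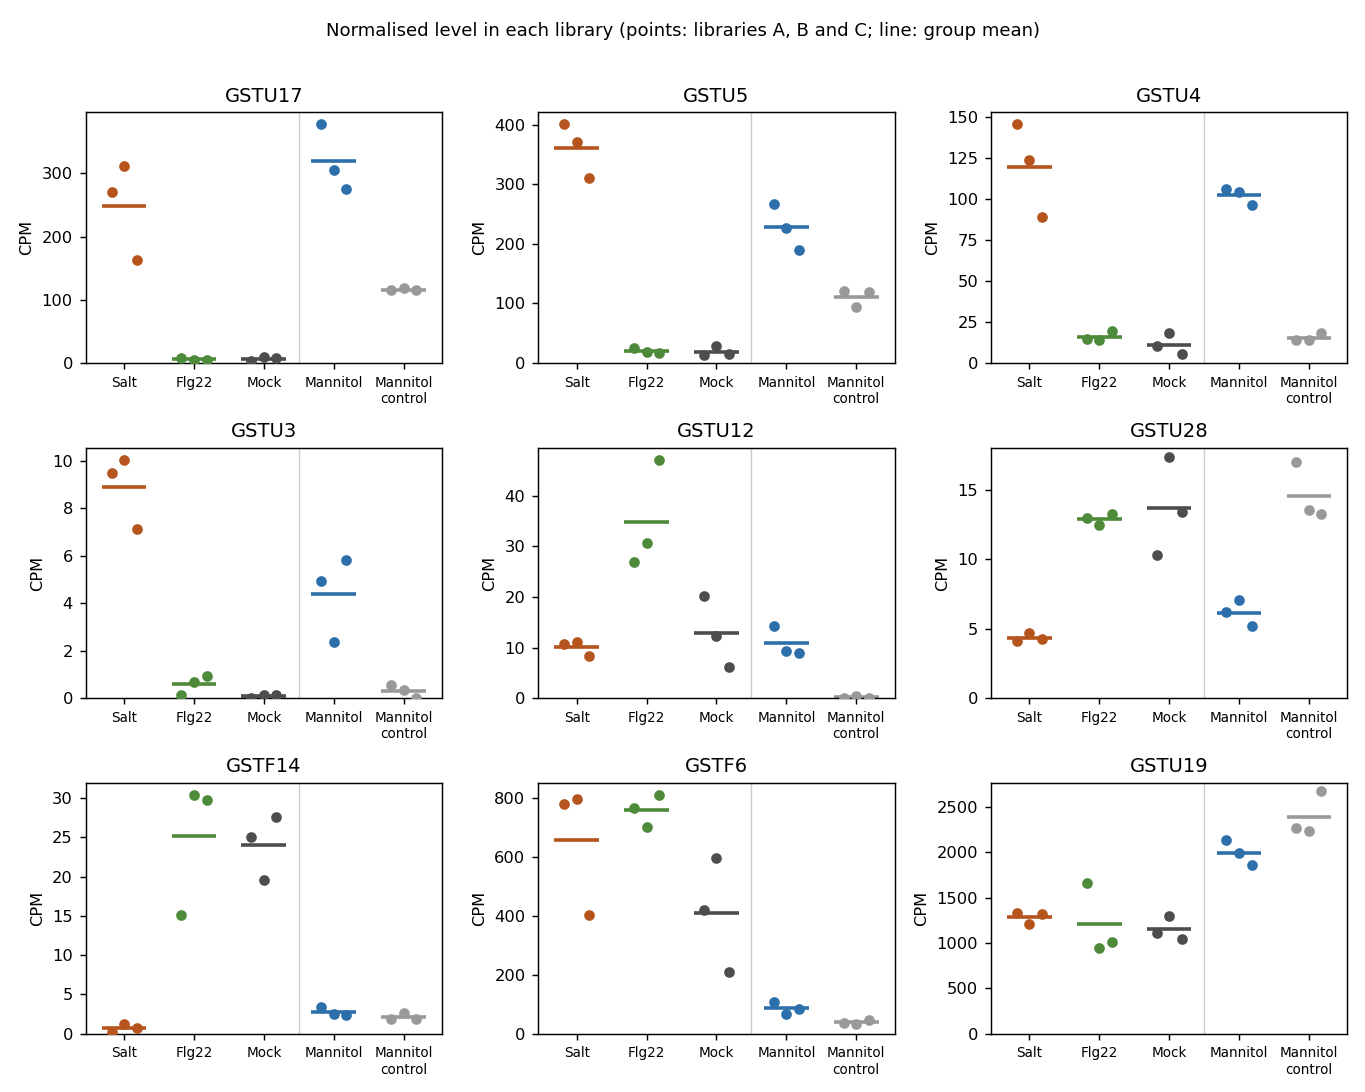
CPM (y axis, from 0) of 9 members in each library, with groups on the x axis, libraries A, B and C as points from left to right and the group mean as a line. Salt, Flg22 and mock stand left of the grey line, mannitol and its control right of it. GSTU12 was at 0.0809 to 0.409 CPM in the mannitol control and at 6.26 to 20.2 CPM in mock, and GSTF14 was at 0.234 to 1.26 CPM in salt and 19.5 to 27.6 CPM in mock.

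Decreases in mannitol were spread over many members and were mostly under 2-fold. GSTU26 had 32.7, 40.5 and 41.3 CPM in mannitol, against 98.7, 97.8 and 108 CPM in the mannitol control (-1.41 ± 0.10, adjusted p 3.92e-08, edgeR). GSTU14 had 3.09, 7.08 and 5.19 CPM in mannitol, against 13.9, 12.9 and 12.8 CPM in the control (-1.35 ± 0.21, adjusted p 0.000140, edgeR). Its neighbour GSTU13 (AT1G27130), required for indole glucosinolate metabolism in immunity, moved the other way, with a mean of 227 ± 2.89 CPM in mannitol and 184 ± 3.36 CPM in the control (SD, n = 3 each). GSTU28 had 6.18, 7.08 and 5.19 CPM in mannitol, against 17.0, 13.5 and 13.2 CPM in the control (-1.25 ± 0.16, adjusted p 2.36e-05, edgeR). GSTU27 had 23.8, 25.1 and 23.0 CPM in mannitol, against 55.6, 56.3 and 53.1 CPM in the control (-1.20 ± 0.08, adjusted p 4.95e-08, edgeR). These 4 genes were chosen among members without overlap of the groups, so that every mannitol library lay below every control library by that choice. GSTU8 (AT3G09270) had a mean of 241 ± 38.6 CPM in mannitol and 515 ± 40.2 CPM in the control (SD, n = 3 each), and GSTF13 (AT3G62760) had a mean of 4.58 ± 0.758 CPM in mannitol and 10.2 ± 0.686 CPM in the control (SD, n = 3 each). GSTF12 (AT5G17220) had 36, 40 and 26 counts in mannitol and 69, 73 and 55 counts in the control, a log2 change of -0.66 ± 0.25 (adjusted p 0.0378, edgeR). Among the smaller increases, GSTF2 (AT4G02520), a near copy of GSTF3 that binds small ligands such as camalexin, had 2.88, 2.54 and 2.35 CPM in mannitol, against 0.970, 0.750 and 2.12 CPM in the control (1.01 ± 0.37, adjusted p 0.0334, edgeR). The levels of GSTF2 were low, its control group alone did not meet the count filter, and an overlapping gene shares part of its transcript.

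Flg22 against mock asked which members respond to the flagellin peptide. Of 33 members tested, 1 was higher (3.03%) and 0 were lower, beside 2.54% higher and 1.14% lower among 18230 genes tested, and at 2-fold 0.823% and 0.0329% of all genes. At an unadjusted p under 0.05 in edgeR, 3 members were higher and 0 lower, and DESeq2's Wald test likewise called 1 higher and 0 lower. The member that rose was GSTU11 (AT1G69930), with 47, 37 and 46 counts in Flg22 and 9, 6 and 19 counts in mock. On the CPM scale it had 5.99, 4.36 and 5.35 in Flg22, against 1.41, 0.929 and 1.49 in mock, a log2 fold change of 1.96 ± 0.29 (adjusted p 0.00757, edgeR), and the adjusted p was 0.0537 without Flg22 C. The mock group alone did not meet the count filter, so GSTU11 was tested through its Flg22 libraries and its p is no independent support. Its neighbour GSTU12 (AT1G69920) had 27.0, 30.6 and 47.1 CPM in Flg22, against 20.2, 12.2 and 6.26 CPM in mock, also without overlap, but the difference of 1.48 ± 0.47 was not called (adjusted p 0.201, edgeR).

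GSTF6 and GSTF7, near copies of each other, were high in Flg22 without a call. GSTF6 (AT1G02930) had 765, 700.1 and 810.3 CPM in Flg22, against 419, 596 and 211 CPM in mock, and GSTF7 (AT1G02920) had 1119, 1051 and 1128 CPM in Flg22, against 696, 1002 and 371 CPM in mock. In both genes the lowest Flg22 library was above the highest mock library, and the mock libraries spread widely, with Mock B highest and Mock C lowest. The differences were 0.87 ± 0.39 for GSTF6 (adjusted p 0.354, edgeR) and 0.65 ± 0.37 for GSTF7 (adjusted p 0.457, edgeR). In salt GSTF6 had 778, 794 and 401 CPM and GSTF7 had 786, 776 and 414 CPM, which overlapped mock.

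Some libraries were high for many members at once. Among members with a group mean of at least 5 CPM, Mock B had the highest mock value in 14 of 21 tau and 7 of 8 phi genes, and Flg22 A had the highest Flg22 value in 13 of 21 tau genes. GSTU1, GSTU8, GSTU22, GSTU24 and GSTU25 shared this pattern: GSTU8, for example, had 269, 108 and 146 CPM in Flg22, against 134, 233 and 109 CPM in mock. In the mannitol control, library C was highest in 13 of 22 tau and 6 of 6 phi genes. Without Mock B, salt called 14 members higher and 6 lower, GSTU1 (AT2G29490), GSTU8 (AT3G09270) and GSTU22 (AT1G78340) being added to the higher ones with log2 fold changes of 1.05, 0.83 and 0.85. Without Mock B, Flg22 called 2 members higher, the second being GSTU10 (AT1G74590) with a log2 fold change of 1.06.

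The responses to salt and to mannitol were compared by the test of their difference, in which neither control group is shared. Of 36 members tested, 12 were higher in the salt response (33.3%) and 4 lower (11.1%), beside 11.5% and 8% among 19363 genes tested. The tau class held 11 of the 12. Large differences were those of GSTU12 (-5.79 ± 0.72, adjusted p 0.000195, edgeR), GSTF14 (-5.33 ± 0.45, adjusted p 1.47e-06, edgeR), GSTU17 (3.75 ± 0.42, adjusted p 0.000201, edgeR) and GSTF3 (-3.47 ± 1.0, adjusted p 0.0264, edgeR). GSTU12 had at most 6 counts in a library of the mannitol control, with means of 10.1 CPM in salt and 10.9 CPM in mannitol. GSTF14 had at most 12 counts in a salt library, with means of 24.1 CPM in mock and 2.11 CPM in the mannitol control. GSTF3 (AT2G02930) had 4.44, 4.19 and 3.00 CPM in salt, against 10.03, 11.6 and 3.68 CPM in mock, and 14, 9 and 5 counts in mannitol, against 0, 1 and 5 counts in its control. Its salt response was not called, its mannitol response was not tested because of the low counts, and its difference lost the call without either of 2 mannitol libraries (A or B), either of 2 control libraries (A or B) or Salt C, with adjusted p-values of 0.0505 to 0.0908 in edgeR. GSTU5 (3.28 ± 0.32), GSTU18 (2.34 ± 0.26) and GSTU6 (1.99 ± 0.18) also had a larger log2 change in salt. GSTU4 (0.80 ± 0.46, adjusted p 0.275, edgeR) and GSTU9 (-0.11 ± 0.21, adjusted p 0.778, edgeR) gave no called difference. Without treatment, GSTU17, GSTU5, GSTU18 and GSTU6 averaged 6.70, 19.0, 2.11 and 21.4 CPM in the mock libraries. Their mannitol control means were higher, at 116, 111, 17.5 and 54.8 CPM. Salt brought these genes to 248, 361, 12.9 and 78.4 CPM on average, and mannitol to 319, 228, 22.1 and 51.5 CPM. Whether the unequal untreated levels account for the larger log2 changes in salt was not tested.

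Of the members called in both treatments, 12 moved in the same direction, 8 higher and 4 lower, and 1 moved in opposite directions, namely GSTU25. Among all genes tested, 5512 were called in both treatments, of which 91.5% moved in the same direction, beside 92.3% of these 13 members, so that the share among the members was near that of all genes. A further 13 members were called in mannitol and tested without a call in salt, 4 higher and 9 lower, and 4 were called in salt and tested without a call in mannitol. A call in 1 treatment alone is not a test of the difference between them.

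Salt and Flg22 were also compared directly, since their comparisons with mock share the mock libraries and are not independent. Of 34 members, 10 were higher in salt (29.4%) and 11 lower (32.4%), beside 21.7% and 20.8% among 18432 genes tested. The higher ones included GSTU17 (5.40 ± 0.31), GSTU5 (4.18 ± 0.17), GSTU3 (3.88 ± 0.39, with at most 8 counts in a Flg22 library) and GSTU4 (2.91 ± 0.21). Lower in salt were GSTF14 (-5.03 ± 0.45, with at most 12 counts in a salt library), GSTU12 (-1.76 ± 0.22), GSTU10 (-1.72 ± 0.15) and GSTF3 (-1.51 ± 0.19), each of them without overlap of the libraries. GSTU11 was 1.03 ± 0.33 lower in salt (adjusted p 0.0289, edgeR).

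The untreated groups differed widely from each other. In the mannitol control against mock, 19 of 35 members were higher (54.3%) and 7 lower (20%), beside 20.9% higher and 21.6% lower among 18927 genes tested. The tau class held 16 of the 19, with a median log2 difference of 1.02, against 0.00 over all genes. Among the increases were GSTU17 (4.08 ± 0.27), GSTF12 (3.63 ± 0.44), GSTU18 (3.09 ± 0.18) and GSTU20 (3.00 ± 0.17). GSTU20 (AT1G78370) had 45.0, 50.8 and 46.6 CPM in the mannitol control, against 4.86, 8.52 and 4.93 CPM in mock. GSTF12 (AT5G17220), the anthocyanin carrier TT19, had 69, 73 and 55 counts in the mannitol control and 0, 4 and 6 counts in mock, and it passed the count filter through the mannitol control alone. The libraries of the untreated groups were well apart for both genes.

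Lower in the mannitol control were GSTU12 (-5.74 ± 0.69), GSTF3 (-5.66 ± 0.80), GSTF7 (-3.55 ± 0.47), GSTF14 (-3.50 ± 0.19), GSTF6 (-3.40 ± 0.48), GSTU14 and GSTU27. GSTU12 and GSTF3 had at most 6 and 5 counts in a library of the mannitol control and passed the count filter through mock alone, so that their fitted values carry no rank among the decreases. GSTF6 and GSTF7 together show the shift in the makeup of the pool: GSTF6 took 0.378% to 0.489% of member counts in the mannitol control and 4.31% to 8.4% in mock, and GSTF7 took 0.570% to 0.757% and 7.58% to 14.1%. GSTF14 (AT1G49860), the phi gene lowered by salt, had 1.86, 2.66 and 1.82 CPM in the mannitol control, against 25.1, 19.5 and 27.6 CPM in mock. The setting in which each untreated group was kept and the group itself cannot be told apart.

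**Figure D4:**
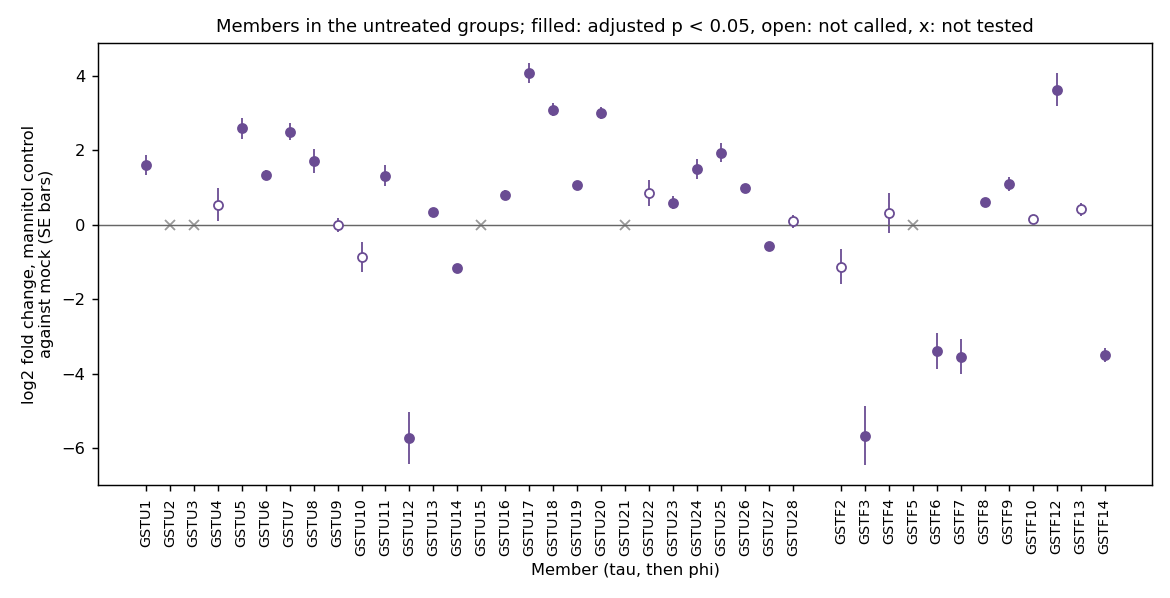
Log2 fold change (y axis, SE bars) of each member in the mannitol control against mock, tau members left and phi members right on the x axis. Filled points passed an adjusted p of 0.05, open points did not, and crosses were not tested. Of 35 members 19 were higher and 7 lower in the mannitol control. GSTU17 was at 4.08, and GSTU12, with at most 6 counts in a library of the mannitol control, at -5.74.

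Other genes of the pathway included members called in both directions. The counts in this and the next paragraph stand beside the shares over all genes tested. These were 22.5% higher and 19.4% lower in salt, 26% and 26% in mannitol, and 2.54% and 1.14% in Flg22. Of 13 glutathione transferases of other classes, 3 rose and 0 fell in salt by edgeR, the zeta gene GSTZ1 (0.48 ± 0.11), the lambda gene GSTL3 (0.48 ± 0.17) and the dehydroascorbate reductase DHAR1 (0.75 ± 0.13), and 3 rose and 2 fell in mannitol. None of the 13 was called in Flg22 (0 higher and 0 lower by edgeR, and 0 at an unadjusted p under 0.05). Of 9 tested genes of glutathione synthesis, recycling and breakdown, 4 rose and 2 fell in salt, and 4 rose and 2 fell in mannitol. Among them GR1 (AT3G24170), a glutathione reductase that regenerates reduced glutathione, rose by 1.58 ± 0.14 in salt and 0.56 ± 0.07 in mannitol. GGCT2;1 (AT5G26220), a gamma-glutamyl cyclotransferase that breaks glutathione down, rose by 3.33 ± 0.44 in salt and was at -0.01 ± 0.22 in mannitol. It had 2, 1 and 3 counts in mock and 25, 20 and 20 in salt, and passed the count filter through salt alone. The mannitol control held 70, 82 and 58 counts of this gene, so its changes start from unequal untreated levels. The synthesis gene GSH1 (AT4G23100) was at -0.16 ± 0.09 in salt, not called, and fell by 0.41 in mannitol. Phytochelatin synthase (AT5G44070) was the only gene of these 9 called in Flg22, of 8 tested there, with 0.998 ± 0.0955 on the log2 scale (adjusted p 0.00142, edgeR). At an unadjusted p under 0.05 in edgeR, 3 of these 8 were higher and 0 lower in Flg22.

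Of the 3 vacuolar conjugate transporters, 2 rose and 0 fell in salt, while 1 rose and 2 fell in mannitol, where ABCC3 (AT3G13080) was 1.67 ± 0.07 higher. Of 6 tested glutathione peroxidase-like genes, 2 rose and 1 fell in salt, and 2 rose and 1 fell in mannitol. The TGA factors of class II and their partner SCL14, regulators of the xenobiotic response, had 0 of 4 genes higher and 1 lower in salt, and 1 higher and 1 lower in mannitol. Of 6 markers of that response, 3 rose and 1 fell in salt and 4 rose and 1 fell in mannitol, led in salt by NAC032 (AT1G77450, 2.05 ± 0.10), the glucosyltransferase UGT74E2 (AT1G05680, 1.70 ± 0.24) and the cytochrome P450 CYP81D11 (AT3G28740, 1.23 ± 0.13). The median log2 fold change of these markers was 0.58 in salt and 0.62 in mannitol, and -0.01 and -0.02 over all genes. In Flg22, edgeR called 0 of the 3 transporters, 0 of 6 peroxidase-like genes, 0 of the 4 regulators and 0 of the 6 markers. At an unadjusted p under 0.05, 1 regulator was higher and 0 genes of the other 3 lists passed.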

How the data were processed

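The authors deposited raw whole-number counts per gene, made with HTSeq against Araport11 genes. Before counting, adapter sequence and poor reads had been taken away (Trimmomatic) and read duplicates had been taken out (Picard), which can lower the counts of highly expressed genes. Versions and counting options are not given in the sources used here, and the libraries were polyadenylated and nonstranded, so that reads of overlapping genes on opposite strands cannot be told apart. The deposited counts of 15 libraries in 5 groups of 3 were used as they stood, and the columns were matched to samples by group name and letter, except for the mannitol control. Its columns are named as a second mock group and were assigned by letter and because the labels hold no other untreated group, so that every mannitol comparison rests on this reading. Depth was 6094503 to 13943645 counts per library.

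Each comparison was fitted with edgeR 4.0.16 (robust quasi-likelihood test, TMM factors, filterByExpr with a minimum count of 10, R 4.3.3) on the libraries of the groups compared, and p-values were adjusted by Benjamini-Hochberg over all genes tested. A gene was called at an adjusted p under 0.05, and 2-fold means a log2 change of at least 1. The salt and mannitol responses were compared by an interaction contrast over 4 groups. CPM were scaled by TMM over all 15 libraries. Ratios of summed counts carry exact 95% intervals for counting error only. Alternatives were other scaling factors, DESeq2 1.42.0, other count filters, 1 fit over all libraries, the library letter as a block, thinning to the smallest total, a 2-fold threshold and leaving out each library.

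Values in every library are given for the 6 largest called increases and 4 largest called decreases per treatment (group mean of at least 5 CPM, no overlap), the 4 members highest per kilobase, the 4 largest called differences between salt and mannitol, and their near copies or neighbours. Other members named with values were chosen after their values were seen. The members and lists were chosen with earlier results of these data known. Positions and promoter windows are from RefSeq on TAIR10.1, matched by locus (Python 3.11.15, Biopython 1.88).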

Additional observations from a re-analysis of the deposited data

Results flagged for a closer look

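GSTU25 (AT1G17180) responded in opposite directions to the 2 osmotic treatments, and the difference itself passed the test. It had 217, 205 and 242 CPM in salt, against 101, 144 and 76.0 CPM in mock, a log2 fold change of 1.09 ± 0.22 (SE, adjusted p 0.00597, edgeR). In mannitol it had 337, 341 and 364 CPM, against 396, 398 and 425 CPM in the mannitol control, a log2 fold change of -0.23 ± 0.07 (adjusted p 0.0176, edgeR). The salt response exceeded the mannitol response by 1.32 ± 0.24 on the log2 scale (adjusted p 0.00221, edgeR). The untreated levels differed, the mannitol control being 1.94 higher than mock on the log2 scale.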

How the results depend on the processing

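Over all members and the 6 comparisons, none of the 108 called values changed direction under the alternatives run, while 37 of the 99 values that were not called did so under at least 1, each of them with a fitted log2 size of 0.33 or less. The counts that moved by over 1.5 times were few. In mannitol, 6 members were lower and 14 called in all at 2-fold, beside 15 and 27 at the adjusted p alone. In Flg22, 0 members were called with at least 10 counts required in every library, where GSTU11 was no longer tested, and 2 with all 15 libraries in 1 fit, which added GSTU12 (AT1G69920, adjusted p 0.0353, edgeR). Leaving out 1 library gave 0 to 2 members called in Flg22 (0 without Flg22 C, 2 without Mock B). In the difference between salt and mannitol, 1 member was lower with at least 10 counts in every library, and 2 to 5 were lower with 1 library left out, beside 4. GSTU10 (AT1G74590) lost its salt call in 7 settings, with adjusted p-values of 0.0505 to 0.178 in edgeR. DESeq2 called 12 members higher and 7 lower in salt and 12 higher and 14 lower in mannitol. Upper-quartile scaling moved the median of all genes to -0.16 in salt and -0.12 in mannitol on the log2 scale.

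Same-lettered libraries did not deviate together (correlations of -0.251 to 0.0855), so the letters were not taken as pairs. With the letter as a replicate block, 21 members were called in salt (13 higher, 8 lower), 27 in mannitol, 1 in Flg22, 16 in the difference between salt and mannitol, 24 in salt against Flg22 and 25 in the mannitol control against mock. Members with few counts, such as GSTF3 and GSTU3, carry the widest errors.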
